A study of Mus musculus with 22 samples.

Results

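The genes described here are 41 imprinted genes on mouse autosomes, all outside the Prader-Willi domain, in 17 imprinted clusters or isolated loci. They were taken by their RefSeq positions on mm10 (GRCm38), and every 50 kb window that overlapped at least 1 of them was kept. This gave 87 windows of the 54520 in the data, and all 87 had enough counts to be tested for both marks. The measurement is chromatin immunoprecipitation and sequencing of whole mouse testis with antibodies against γH2AX and against the histone variant H3.3, in 22 libraries that include 3 inputs. The study addressed how Robertsonian translocations, in which 2 acrocentric chromosomes are joined at their centromeres, move with the distribution of these marks.

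The carriers were heterozygous F1 mice. In 1Rb_M the parent listed first was CBy.RBF-Rb(8.12)5Bnr/J, whose name gives a translocation joining chromosomes 8 and 12, and the other parent was B6.SPRET7MOLF12. In 1Rb_P the parent listed first was C57BL/6J and CBy.RBF-Rb(8.12)5Bnr/J came second, so that both groups carried this 1 translocation. In 3Rb the parents were B6.SPRET7MOLF12, listed first, and RBF/Dnj, and the offspring had 3 translocations. The controls were Cg (strain B6.SPRET7MOLF12) and B6 (C57BL/6J). γH2AX libraries came from mice of 4 weeks, with 3 for each carrier group and a single one for B6. H3.3 libraries came from mice of 6 weeks, with 3 for each of Cg, 3Rb and 1Rb, the last being of the strain of 1Rb_M. The reciprocal crosses do not differ in the direction of transmission alone, because the non-carrier parent was B6.SPRET7MOLF12 in 1Rb_M and C57BL/6J in 1Rb_P. By its name B6.SPRET7MOLF12 is a C57BL/6 strain with material of SPRET on chromosome 7 and of MOLF on chromosome 12, and 28 of the 87 windows lie on those chromosomes (21 on 7 and 7 on 12). Parental direction and parental strain therefore cannot be told apart there. Comparisons of 3Rb with 1Rb groups also differ in parental strain, because 3Rb had RBF/Dnj in place of CBy.RBF-Rb(8.12)5Bnr/J. Against 1Rb_P the non-carrier parent differed as well, being B6.SPRET7MOLF12 in 3Rb and C57BL/6J in 1Rb_P. RBF/Dnj was listed second, whereas CBy.RBF-Rb(8.12)5Bnr/J was listed first in 1Rb_M. Number of translocations and parental strain, and against 1Rb_M the direction of the cross, cannot be told apart in these comparisons. In H3.3 the carriers were F1 mice with a B6.SPRET7MOLF12 parent, whereas Cg was that strain itself. Translocation and strain therefore cannot be told apart in comparisons with Cg either. Labels do not say that replicates came from separate animals, so the p-values measure the spread between these libraries, which may be technical.

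Imprinted genes are transcribed mainly from the allele of a single parent. The choice of allele follows DNA methylation at control regions, which is erased and laid down again in the germ line, so the testis holds cells in which paternal marks are being set or kept. γH2AX is the phosphorylated form of histone H2AX that gathers around DNA breaks and over chromosomes that fail to pair in meiosis, above all the X and Y in spermatocytes. H3.3 is the replacement variant of histone H3 that is deposited outside DNA replication, typically at active genes and, in spermatocytes, on the silenced sex chromosomes.

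As a check of the label, the sex chromosomes are where γH2AX gathers in spermatocytes, and chromosome X took 12.3% to 20.6% of the γH2AX counts and 3.16% to 3.17% of the input counts. Library totals were 45527545 to 56385465 counts for γH2AX in carriers, 21535147 in B6, 41278440 to 128348440 for H3.3 and 11876426 to 51651953 for the inputs. The median imprinted window held 627 to 783 counts in a γH2AX carrier library, for a counting error of 3.57% to 3.99%, and 737 to 2536 in an H3.3 library. γH2AX replicates 1 and 2 of 1Rb_M stand apart, with 12.3% of counts on X each, against 17.7% to 18.9% in replicate 3 and in the 6 other carrier libraries. For comparisons with 1Rb_M, values over all imprinted windows and over the gene sets, and the differences of the leading windows, are also given with replicate 3 alone. Counts by cluster are given with all libraries only.

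The starts of a few of these genes are shown because their windows carry the results that follow. Dio3 encodes the deiodinase that inactivates thyroid hormone and Ascl2 a transcription factor of the trophoblast, and both windows were called between the reciprocal crosses. Rasgrf1, an activator of Ras, had the lowest γH2AX and H3.3 of all clusters in 3Rb. Gnas, the stimulatory G protein α subunit, had the highest H3.3 of the cluster means. Each sequence is the 250 bases before an annotated start, 5′ to 3′ on the strand of the gene, from RefSeq on GRCm38.p6, with every CG dinucleotide, the substrate of DNA methylation in mammals, in capitals.
Dio3: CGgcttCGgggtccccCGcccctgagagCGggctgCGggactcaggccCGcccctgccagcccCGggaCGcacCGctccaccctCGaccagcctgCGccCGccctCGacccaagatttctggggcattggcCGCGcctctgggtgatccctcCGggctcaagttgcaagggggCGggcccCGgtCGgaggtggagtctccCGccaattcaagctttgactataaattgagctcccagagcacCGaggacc
Ascl2: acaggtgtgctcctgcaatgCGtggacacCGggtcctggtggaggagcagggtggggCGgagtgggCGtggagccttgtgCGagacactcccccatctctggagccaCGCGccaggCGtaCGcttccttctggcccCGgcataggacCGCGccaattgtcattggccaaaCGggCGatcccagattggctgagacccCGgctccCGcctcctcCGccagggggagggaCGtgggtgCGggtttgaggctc
Rasgrf1: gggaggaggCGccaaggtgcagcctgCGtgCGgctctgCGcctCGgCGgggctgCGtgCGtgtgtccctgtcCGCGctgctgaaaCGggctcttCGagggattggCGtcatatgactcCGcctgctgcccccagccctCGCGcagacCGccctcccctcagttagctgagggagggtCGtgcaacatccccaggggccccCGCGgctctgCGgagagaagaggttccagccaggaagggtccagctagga
Gnas: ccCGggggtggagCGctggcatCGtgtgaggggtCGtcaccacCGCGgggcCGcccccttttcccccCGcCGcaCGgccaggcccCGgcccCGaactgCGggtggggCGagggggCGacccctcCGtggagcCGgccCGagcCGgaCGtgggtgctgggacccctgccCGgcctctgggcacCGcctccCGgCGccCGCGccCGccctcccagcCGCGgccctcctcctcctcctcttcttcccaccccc
They lie at chr12:110278980-110279229 on the plus strand, chr7:142969265-142969514 on the minus strand, chr9:89909525-89909774 on the plus strand and chr2:174329756-174330005 on the plus strand, the last being the start of Gnas with the most CG. In order they hold 21, 19, 21 and 29 CG dinucleotides and have a GC content of 69.6%, 67.6%, 69.2% and 80.0%. Of the 41 genes, 31 matched the promoter table with 46 starts, whose median was 10 CG, against 6 over all 32851 starts in the table. At least 15 CG stood before 14 of the 46 starts (30.43%), and before 27.31% of all starts. The genes H19, Cdkn1c, Kcnq1, Klf14, Peg10, Sgce, Rtl1, Impact, Trappc9 and Kcnk9 had no entry there.

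By cluster mean, H3.3 was highest over Gnas and lowest over Rasgrf1 in carriers and controls alike. Levels here are log2 enrichment over the 3 pooled inputs, centred so that the median autosomal window is 0. The Gnas cluster was highest in every group, at 0.84 ± 0.076 (SD, n = 3) in Cg, 0.88 ± 0.118 in 1Rb and 0.81 ± 0.040 in 3Rb. Its libraries ran from 0.78 to 0.92 in Cg, from 0.74 to 0.96 in 1Rb and from 0.78 to 0.86 in 3Rb, so the groups overlapped. Nnat, which encodes the small membrane protein neuronatin, followed in Cg at 0.67 ± 0.085 and in 1Rb at 0.70 ± 0.128, and stood at 0.56 ± 0.017 in 3Rb. Commd1-Zrsr1, a copper-handling gene with an imprinted retrogene in its intron, stood at 0.63 ± 0.013 in Cg, 0.66 ± 0.055 in 1Rb and 0.58 ± 0.052 in 3Rb. Nnat and Commd1-Zrsr1 did not differ beyond their spread in any group.

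Rasgrf1 was the lowest cluster for H3.3, at -0.02 ± 0.034 in Cg, -0.04 ± 0.037 in 1Rb and -0.05 ± 0.038 in 3Rb. It was the only one of the 17 clusters that did not lie above the median autosomal window in all 9 libraries. The median over the 87 windows was 0.21 in Cg, 0.25 in 1Rb and 0.21 in 3Rb, close to the 0.27, 0.27 and 0.24 of all 27956 autosomal windows with a protein-coding gene. In each group the imprinted median was slightly below that of gene windows. Whole testis was used, so for both marks fewer cells that carry the mark and less mark per cell cannot be told apart.

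**Figure D1:**
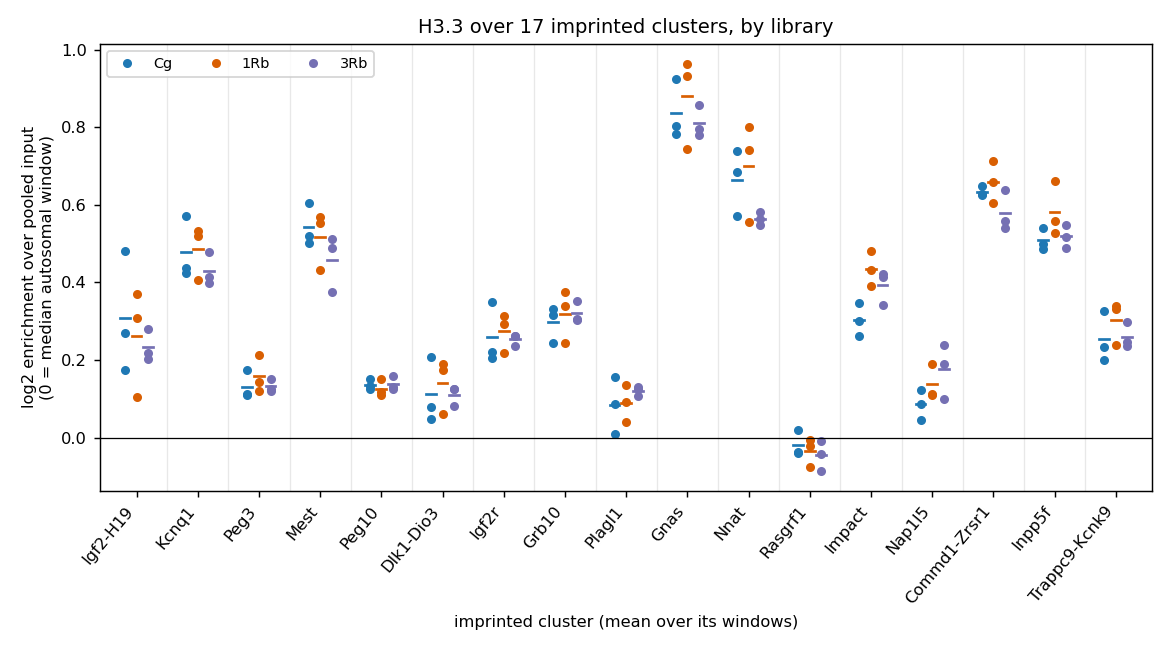
H3.3 level of each of the 17 imprinted clusters, as the mean log2 enrichment over input of its windows (y axis, 0 is the median autosomal window), with 1 point per library and a bar at the group mean of 3 libraries for Cg, 1Rb and 3Rb. Gnas has the highest mean in each group (0.81 to 0.88) and Rasgrf1 the lowest (-0.05 to -0.02). Only in Impact do the 3 points of 1Rb lie wholly above those of Cg, and in no cluster do those of 3Rb lie apart from those of Cg.

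Single windows spread more widely than the clusters. The window of Phlda2, a gene that restrains placental growth, at chr7:143500001-143550000, had the highest H3.3 of the 87 in each group, at 1.00 ± 0.034 in Cg, 1.06 ± 0.075 in 1Rb and 0.93 ± 0.112 in 3Rb. The 50 kb with the start of Kcnq1ot1, the antisense RNA that silences the Kcnq1 cluster on the paternal allele, stood at 0.89 ± 0.036 in Cg, 0.85 ± 0.029 in 1Rb and 0.81 ± 0.078 in 3Rb. Kcnq1 overlaps that window, so the 2 genes cannot be told apart there. At the other end, the third window of Rasgrf1 (chr9:90000001-90050000) had -0.16 ± 0.019 in Cg and -0.23 ± 0.046 in 1Rb, and a window of the noncoding RNA Rian (chr12:109650001-109700000) had -0.14 ± 0.067 and -0.14 ± 0.056.

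Windows that hold a start with at least 15 CG had the higher median H3.3. Among the 87, 14 such windows had a median of 0.48 in Cg, 29 windows with other starts 0.20, and 44 windows that hold no start of the table had a median of 0.21. Over all autosomal windows the same classes had medians of 0.65, 0.14 and -0.14. Imprinted windows that hold no start of the table thus had a higher median than the autosomal windows of that class. Some imprinted genes had no entry in the table, so windows with their starts may be counted in this class. All imprinted windows were also chosen to overlap a gene, whereas the autosomal windows of that class were not. The part of either in the difference was not tested. The medians are descriptions, and windows of a class share genes and neighbours.

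Against their surroundings the clusters differed in sign. H3.3 over Gnas was 0.67 above the mean of its flanks, 500000 bp on either side, in Cg, 0.69 in 1Rb and 0.65 in 3Rb. Dlk1-Dio3 lay below its flanks, by -0.29 in Cg (libraries from -0.32 to -0.26), -0.28 in 1Rb and -0.23 in 3Rb. This is the cluster of Dlk1, a Notch ligand-like growth regulator, with the retrotransposon-derived Rtl1 and the maternal noncoding RNAs Meg3, Rian and Mirg.

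None of the 87 windows passed the test for H3.3 in any comparison. In 1Rb against Cg, 0 of the 87 were called by edgeR's quasi-likelihood test at a Benjamini-Hochberg adjusted p under 0.05 over all windows, where 2.08% of the autosomal windows were called. In 3Rb against Cg 0 were called, with 5.05% of autosomal windows called, and in 3Rb against 1Rb 0, with 2.61%. DESeq2 also called 0 in each comparison. At an unadjusted p under 0.05, edgeR had 3 windows higher and 1 lower in 1Rb against Cg, where 3.97% and 3.6% of autosomal windows were. In 3Rb against Cg it had 5 higher and 2 lower (11.8% and 5.33%), and in 3Rb against 1Rb 1 higher and 5 lower (7.63% and 5.11%). The median log2 difference over the 87 was 0.01, -0.01 and -0.01. Differences ran from -0.15 to 0.14 in 1Rb against Cg, from -0.15 to 0.14 in 3Rb against Cg and from -0.22 to 0.15 in 3Rb against 1Rb, and 2 standard errors of the median window were 0.11, 0.10 and 0.10. The smallest edgeR adjusted p of the 3 comparisons was 0.072, at a window of Grb10, a growth factor receptor adaptor, with 18.5 ± 0.30 CPM (counts scaled to a common library size) in 3Rb and 16.7 ± 0.86 in Cg (log2 difference 0.14 ± 0.049 SE). Impact, a translational regulator, had 24.0 ± 0.59 CPM in 1Rb and 21.8 ± 0.71 in Cg, with no overlap between libraries (0.14 ± 0.052, edgeR adjusted p = 0.169). Without Cg replicate 1, 3 windows passed as higher in 1Rb and 3 in 3Rb, where 2.11% and 1.96% of autosomal windows did. Without Cg replicate 3, 2 passed as lower in 3Rb, where 1.59% of autosomal windows did. Without 1Rb replicate 1, 2 passed as lower in 3Rb against 1Rb, where 2.93% did.

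γH2AX put the clusters in another order. Commd1-Zrsr1 and Inpp5f, a phosphoinositide phosphatase gene with an imprinted short form, had the highest levels in every group. Inpp5f had 0.20, 0.09 and 0.23 in the 1Rb_M libraries, 0.21, 0.26 and 0.22 in 1Rb_P, and 0.34, 0.39 and 0.26 in 3Rb. The 3Rb libraries were the highest, although the lowest of them and the highest 1Rb_P library were nearly equal. Its level exceeded that of its flanks by 0.22 in 1Rb_M, 0.35 in 1Rb_P and 0.47 in 3Rb.

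Rasgrf1 and Igf2-H19 were lowest. Igf2, a fetal growth factor, and H19, a noncoding RNA from the opposite allele, share a paternally methylated control region. Their cluster had -0.04, -0.21 and -0.07 in the 1Rb_M libraries, -0.29, -0.28 and -0.45 in 1Rb_P, -0.41, -0.38 and -0.45 in 3Rb and -0.34 in B6. The 1Rb_M libraries were the highest without overlap, and B6 lay within the 1Rb_P range. Over the 87 windows the median γH2AX level was 0.01 in 1Rb_M, -0.08 in 1Rb_P, -0.09 in 3Rb and -0.06 in B6, while that of all autosomal windows was 0.00 in each. B6 is 1 library of 21535147 counts, shallower than any carrier library, made with an antibody of another supplier, and is given as a value with no test.

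**Figure D2:**
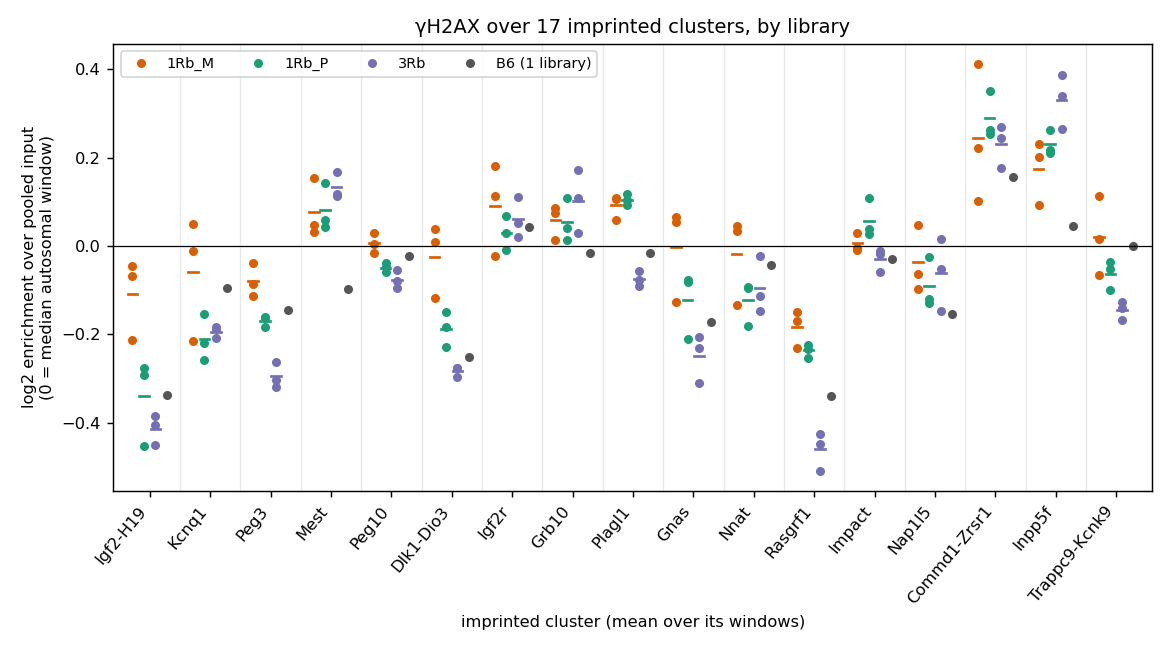
γH2AX level of the 17 imprinted clusters, as the mean log2 enrichment over input of the windows of each cluster (y axis, 0 is the median autosomal window), with 1 point per library for 1Rb_M, 1Rb_P, 3Rb and the single B6 library and a bar at the mean of 3 libraries. In Igf2-H19, Peg3, Peg10 and Dlk1-Dio3 the 3 points of 1Rb_M lie above the 3 of 1Rb_P, and Rasgrf1 is lowest in 3Rb (-0.46).

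The reciprocal crosses differed at few single windows. Of the 87, 3 were higher in 1Rb_M and 0 lower by edgeR, where 0.331% of 48016 autosomal windows were called higher and 0.918% lower. They hold Dio3 (chr12:110250001-110300000), Ascl2 (chr7:142950001-143000000) and the 3′ part of Kcnq1, a potassium channel gene (chr7:143350001-143400000). The median log2 difference over the 87 was 0.08, against 0.01 over the autosomal windows, and 70 of the 87 were above 0. At an unadjusted p under 0.05 25 windows were higher and 0 lower, where 10.3% of autosomal windows were higher and 8.81% lower.

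The Dio3 window had 15.9, 14.1 and 15.2 CPM in 1Rb_M and 12.6, 12.9 and 12.2 in 1Rb_P. The groups did not overlap, although the gap between them was narrower than the spread within 1Rb_M. The log2 difference was 0.26 ± 0.064 (SE, edgeR adjusted p = 0.0323). At Ascl2 the libraries had 14.96, 12.1 and 14.4 CPM in 1Rb_M and 11.9, 10.8 and 10.9 in 1Rb_P, a difference of 0.30 ± 0.077 (edgeR adjusted p = 0.0406). Replicate 2 of 1Rb_M was close to the highest 1Rb_P library there, and on the enrichment scale it was below it (-0.29 against -0.27). At Kcnq1 they had 15.7, 13 and 14.8 CPM against 12.4, 11.98 and 11.2, a difference of 0.29 ± 0.072 (edgeR adjusted p = 0.0382). Again replicate 2 was the lowest of its group.

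These calls turned on single libraries. Without 1Rb_M replicate 1, or without any 1 of the 3 1Rb_P libraries, 0 of the 87 were called, and DESeq2 called 0, with 0.0458% of autosomal windows higher. Without 1Rb_M replicate 2, 20 were higher and 0 lower, where 4.14% of autosomal windows were higher and 7.37% lower. With 1Rb_M replicate 3 as the only library of its group, assumed to vary like the others, 17 were higher and 0 lower, where 4.76% of autosomal windows were higher and 12.4% lower. Without replicate 3, 17 were higher and 2 lower, where 11.1% were higher and 6.36% lower. With replicate 3 alone the differences were 0.27 at Dio3, 0.36 at Ascl2 and 0.32 at Kcnq1, each called (edgeR adjusted p = 0.00371, 0.00015 and 0.000715).

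**Figure D3:**
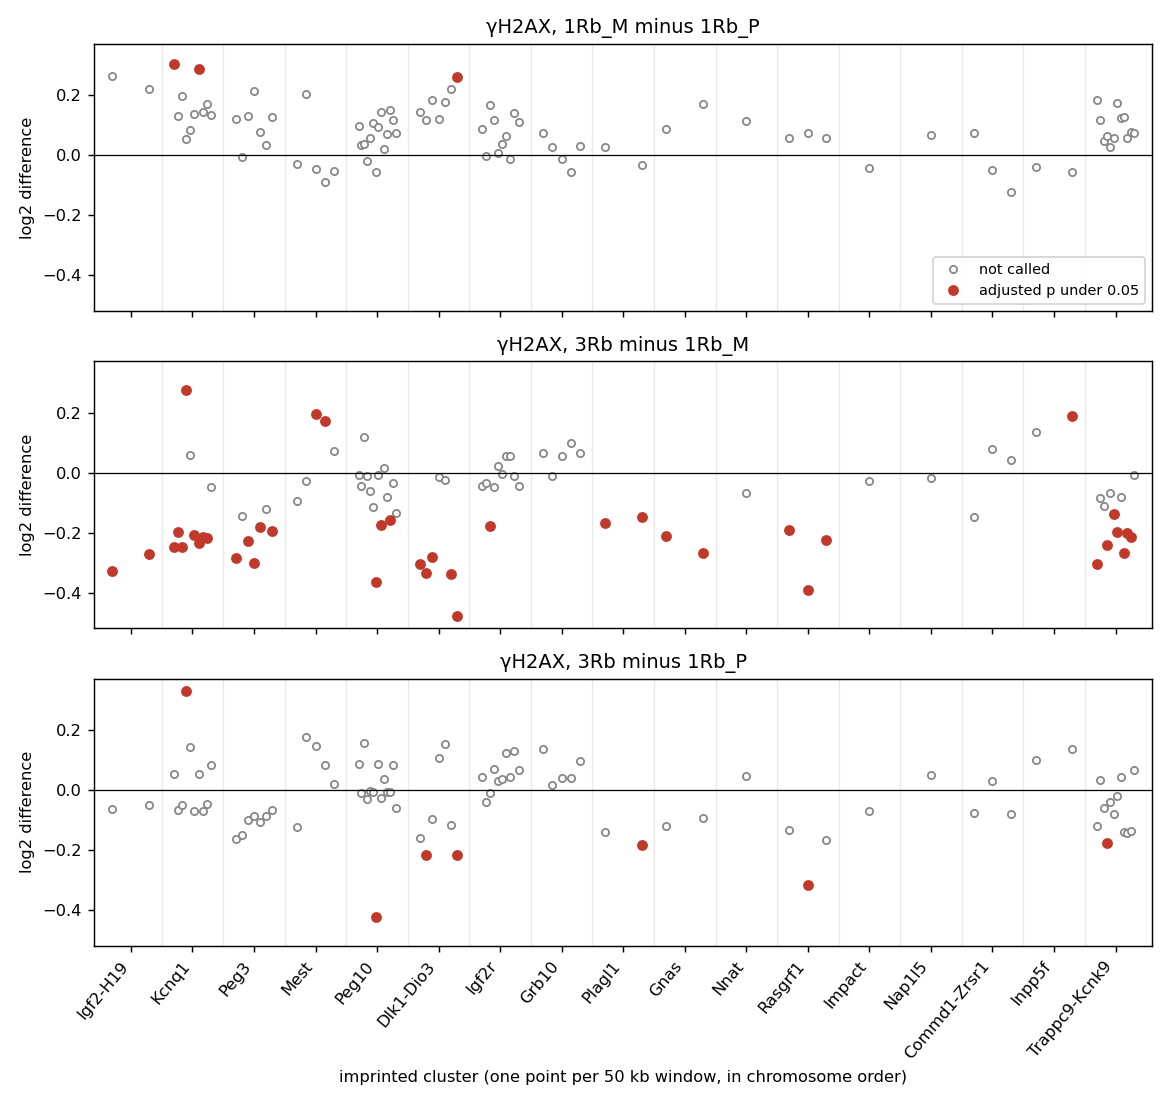
Log2 difference in γH2AX for each of the 87 imprinted windows (y axis), by cluster, for 1Rb_M minus 1Rb_P, 3Rb minus 1Rb_M and 3Rb minus 1Rb_P, with filled red points at an edgeR adjusted p under 0.05. Called windows number 3, 41 and 7, and the comparisons share libraries, so the panels are not independent.

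By cluster, all windows of Igf2-H19 (2), Kcnq1 (10), Dlk1-Dio3 (7) and Trappc9-Kcnk9 (12) were above 0, with medians of 0.24, 0.14, 0.18 and 0.08. So were those of Gnas (2) and Rasgrf1 (3), with medians of 0.13 and 0.06, and the single windows of Nnat and Nap1l5, while both windows of Inpp5f and that of Impact were below 0. H19 had 14.5, 12.8 and 14.9 CPM in 1Rb_M and 12.1, 12.3 and 10.7 in 1Rb_P, without overlap, and its difference of 0.26 ± 0.072 did not pass (edgeR adjusted p = 0.0573). Mirg had 14.7 ± 0.33 CPM against 12.6 ± 0.10, a difference of 0.22 ± 0.063 (edgeR adjusted p = 0.0657), and Igf2 0.22 ± 0.069 (0.097). Usp29, a ubiquitin protease gene of the Peg3 domain, Kcnk9, a potassium channel, and Slc22a3, an organic cation transporter, had 0.21, 0.19 and 0.17 and did not pass. In all, 25 windows had every 1Rb_M library above every 1Rb_P library and 2 the reverse, where 11.8% and 7.96% of autosomal windows did so. Mest, Plagl1, Commd1-Zrsr1, Inpp5f and Impact had medians at or just below 0, the lowest being -0.05.

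The chromosomes of these windows differed between the crosses as well. On chromosome 7 the median over all 2845 windows was itself 0.08 higher in 1Rb_M, with 1.23% called higher and 0 called lower, and its 21 imprinted windows had a median of 0.13. On chromosome 12 the median over 2340 windows was -0.06 and 2.95% were called lower, whereas all 7 imprinted windows were above 0, with a median of 0.18. Outside these chromosomes 0 of 59 imprinted windows were called, with a median of 0.06 against 0.01 for all windows. Inputs were compared as a measure of strain differences in mapping: over Dlk1-Dio3 the Cg input differed from the B6 input by a median of -0.04 and over Kcnq1 by -0.19 on the log2 scale. At Dio3 that difference was 0.00 and at Ascl2 -0.20. The part of strain in the γH2AX differences was not tested.

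Flanking windows were compared too. The Dlk1-Dio3 flanks had a mean of 0.04 in 1Rb_M and -0.03 in 1Rb_P, and the cluster was below them by -0.07 (libraries from -0.10 to -0.03) in 1Rb_M and by -0.16 (from -0.18 to -0.14) in 1Rb_P. Over Igf2-H19 the flanks had -0.06 and -0.23 and the cluster lay below them by -0.04 and -0.11. Windows of other clusters were not left out of flanks, and those of Igf2-H19 include the Ascl2 window and part of Kcnq1. Peg3, a zinc finger gene cluster, was -0.11 and -0.15 from its flanks.

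**Figure D4:**
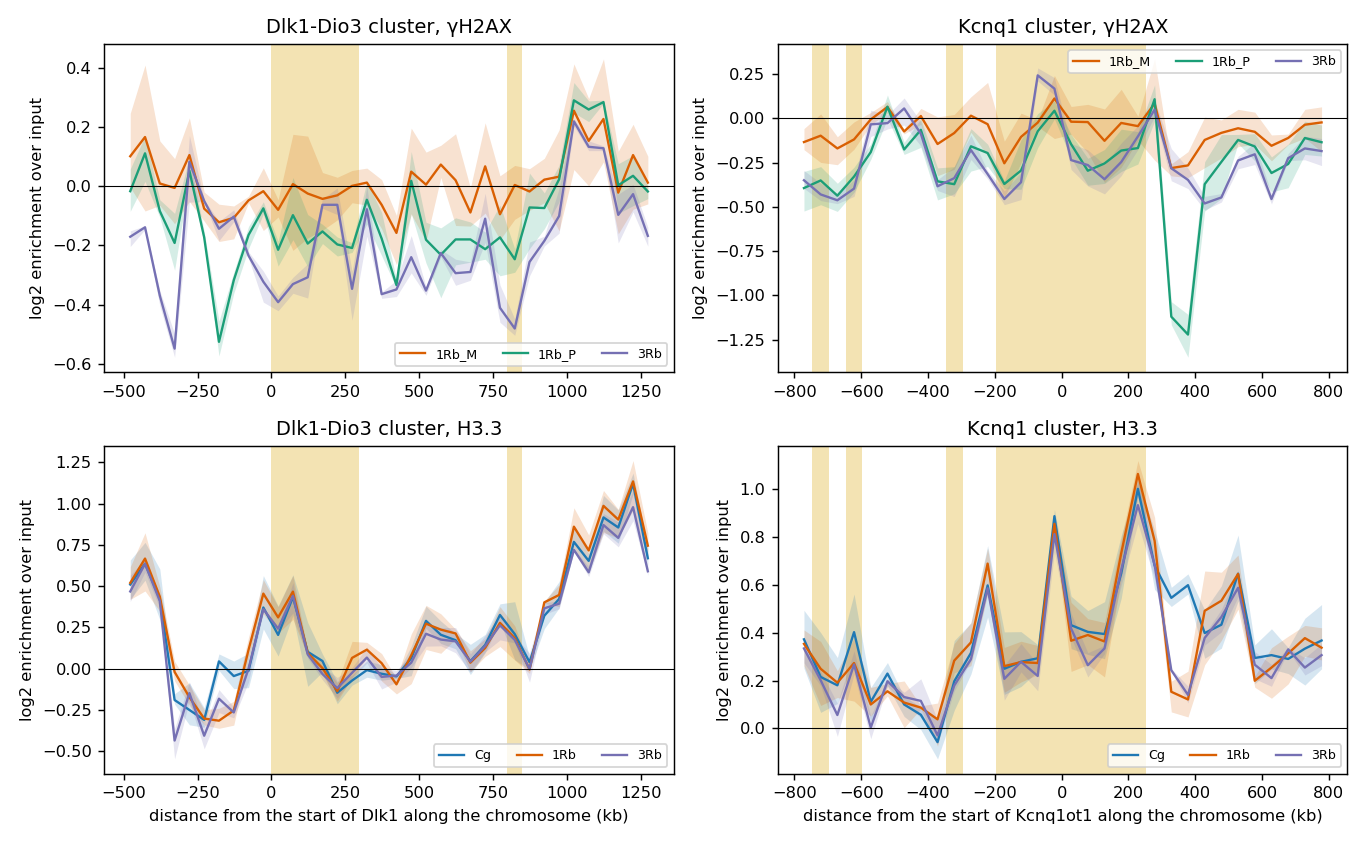
γH2AX (top) and H3.3 (bottom) around Dlk1 and around Kcnq1ot1, as log2 enrichment over input per 50 kb window against distance from the start of the gene in kb, with a line at the group mean, a band from the lowest to the highest of 3 libraries and shading over the imprinted windows. Between Dlk1 and Dio3 the 1Rb_M line runs from -0.08 to 0.01 over the imprinted windows and the 3Rb line is lowest at Dio3 (-0.48), while right of the Kcnq1 cluster, at Osbpl5, Tnfrsf23 and the neighbouring window, 1Rb_P dips to -1.22.

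The libraries also differed in how far γH2AX spread around the median. The width between the quartiles of log2 enrichment over autosomal windows was 0.16, 0.20 and 0.26 in 1Rb_M, 0.26, 0.29 and 0.30 in 1Rb_P, 0.37, 0.37 and 0.34 in 3Rb and 0.32 in B6. The median of the 87 imprinted windows was 0.04, -0.04 and 0.05 in the 1Rb_M libraries, -0.06, -0.05 and -0.09 in 1Rb_P and -0.12, -0.11 and -0.09 in 3Rb. Replicate 3 of 1Rb_M, whose X share and width were close to those of 1Rb_P, had the highest median of the imprinted windows. The part of the spread in the differences was not tested.

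**Figure D5:**
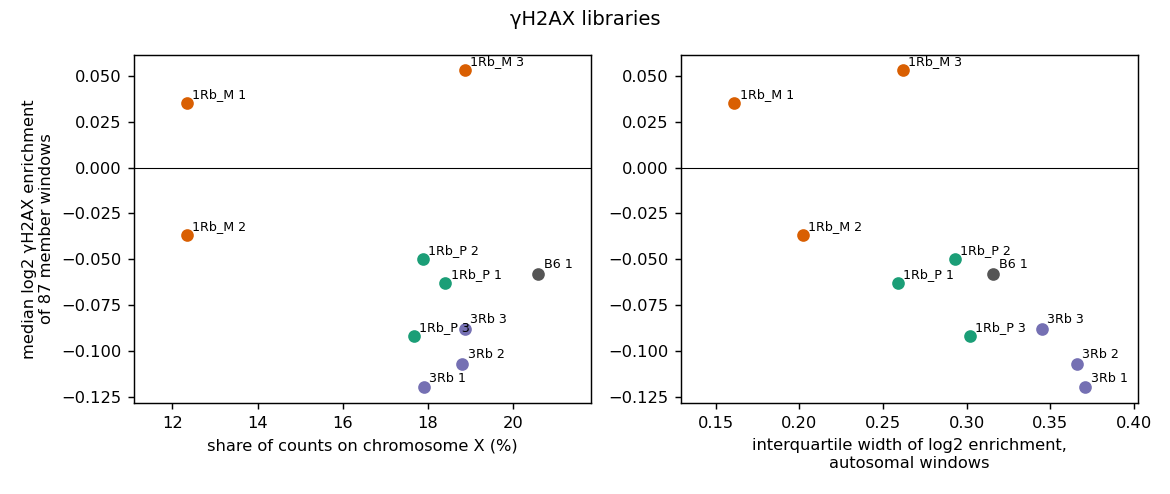
Median log2 γH2AX enrichment of the 87 imprinted windows (y axis) against the share of counts on chromosome X in percent (left) and the interquartile width of log2 enrichment over autosomal windows (right), 1 point per γH2AX library, labelled by group and replicate. Replicates 1 and 2 of 1Rb_M have an X share of 12.3% and narrow widths, while replicate 3 has 18.9% and the highest median (0.05).

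Carriers of 3 translocations had less γH2AX than 1Rb_M carriers at windows in 10 of the 17 imprinted clusters. The groups also differ in parental strain and direction of the cross, and the part of each was not tested. Of the 87 windows 37 were lower and 4 higher by edgeR, where 21.1% of autosomal windows were called lower and 17.8% higher. Among autosomal windows with a protein-coding gene 26.5% were lower and 15.3% higher. The 37 windows are 42.5% of the 87, and they touched 19 of the 41 genes. The median log2 difference was -0.09, against 0.00 over the autosomal windows and -0.03 over those with a protein-coding gene.

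The largest single fall was at Dio3, in a cluster where 5 of 7 windows were lower. Dio3 had 10.8, 11.02 and 10.6 CPM in 3Rb against the 14.1 to 15.9 in 1Rb_M given above. No library of the groups overlapped, and the log2 difference was -0.48 ± 0.064 (edgeR adjusted p = 7.74e-07). Mirg fell by 0.34 (edgeR adjusted p = 8.08e-05), Meg3 by 0.34 (0.00046) and Dlk1 by 0.30 (0.000354). The windows of Rian had -0.03 and -0.01 and did not pass. On chromosome 12 as a whole 17.2% of windows were lower, with a median of 0.03.

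Rasgrf1 was lower at all 3 of its windows. The middle one (chr9:89950001-90000000) had 10.9, 9.97 and 10.8 CPM in 3Rb and 13.9, 14.1 and 13.6 in 1Rb_M. The difference was -0.39 ± 0.064 (edgeR adjusted p = 1.6e-05), and 1Rb_P libraries had 13.3, 13.1 and 13.1, next to 1Rb_M. Chromosome 9 as a whole had 21.1% of windows lower and 26.9% higher.

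On chromosome 7, where 41.6% of all windows were lower, both windows of Igf2-H19, 7 of 10 in the Kcnq1 cluster and 5 of 7 in the Peg3 cluster fell. H19 fell by 0.33 (edgeR adjusted p = 0.000605), Igf2 by 0.27 (0.00243), Usp29 by 0.30 (0.000709) and the zinc finger gene Zim1 by 0.28 (0.000861). Cdkn1c, an inhibitor of cyclin-dependent kinases, fell by 0.22 (edgeR adjusted p = 0.0209), with libraries that overlapped. Inpp5f, on the same chromosome, had no lower window. The share of chromosome 7 was the highest of the chromosomes with imprinted windows.

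Elsewhere both windows of Gnas fell, the stronger by 0.27 (edgeR adjusted p = 0.0013), as did both of Plagl1, a zinc finger transcription factor that restrains growth, by 0.17 and 0.15. In Trappc9-Kcnk9, 7 of 12 windows fell, led by Kcnk9 at -0.30 ± 0.058 (edgeR adjusted p = 0.000131). Trappc9 encodes a subunit of a vesicle tethering complex. The Peg10 cluster had 3 of 14 windows lower, all in Ppp1r9a, a phosphatase-targeting scaffold gene of neurons, where 14.6% of the windows of chromosome 6 were lower. The Igf2r cluster had 1 of 10, at Slc22a3 (-0.18 ± 0.057, edgeR adjusted p = 0.0138), below the 34.4% of chromosome 17.

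The Ppp1r9a window with its start (chr6:4900001-4950000) had 15.6, 15.8 and 16.6 CPM in 3Rb, 20.2, 17.95 and 23.7 in 1Rb_M and 21.4, 22.9 and 20.1 in 1Rb_P. The 3Rb libraries were lowest without overlap. The difference was -0.36 ± 0.080 from 1Rb_M (edgeR adjusted p = 0.000592) and -0.42 ± 0.081 from 1Rb_P (0.000207). This window differed between inputs too, with log2 differences from the B6 input of -0.62 for the Cg input and -0.60 for the input titled 1Rb_M, and its γH2AX level in B6 was 0.68. An input of 3Rb was not analysed here, and the part of the input in this difference was not tested.

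The 4 windows that were higher in 3Rb than in 1Rb_M lay in 3 clusters. Kcnq1 and Kcnq1ot1 share the first, chr7:143200001-143250000, which had 14.4, 15.1 and 14.5 CPM in 3Rb, 12.1, 12.4 and 11.9 in 1Rb_M and 10.9, 11.6 and 12.5 in 1Rb_P. Every 3Rb library was above every other. The difference was 0.28 ± 0.064 from 1Rb_M (edgeR adjusted p = 0.001) and 0.33 ± 0.065 from 1Rb_P (0.000274), in a cluster where 7 neighbouring windows were lower than in 1Rb_M. Scaled to library totals, the difference from 1Rb_M was 0.18 and did not pass (edgeR adjusted p = 0.0988). Copg2, a coatomer subunit gene next to Mest, was higher at 2 windows (0.19 and 0.17) and Inpp5f at 1 (0.19, edgeR adjusted p = 0.017).

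The comparison was repeated without the 1Rb_M libraries of low X share. Against 1Rb_M replicate 3 alone, assumed to vary like the other groups, 31 of the 87 were lower and 3 higher, where 22.5% of autosomal windows were lower and 29.1% higher. Of the 10 windows named by rule in this comparison 9 kept their call and direction with replicate 3 alone, among them Dio3 (-0.49), Rasgrf1 (-0.36), H19 (-0.41) and Kcnk9 (-0.32). Plagl1 lost its call (-0.12, edgeR adjusted p = 0.132), and the Ppp1r9a difference was -0.56. DESeq2 called 20 lower and 1 higher, where 14.6% of autosomal windows were lower and 10.3% higher. Without 1Rb_M replicate 1 the counts were 22 and 2 (15.9% and 13.6%), and without 3Rb replicate 2 they were 26 and 1 (17% and 13.7%).

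Against 1Rb_P, 3Rb differed at 6 lower windows and 1 higher, where 12.2% of autosomal windows were lower and 10.7% higher. The median difference was -0.02 against 0.00 over autosomal windows. The windows that were lower were those of Ppp1r9a and Rasgrf1 (-0.32 ± 0.065, edgeR adjusted p = 0.000482), Plagl1 (-0.18 ± 0.055, 0.0142), Dio3 (-0.22 ± 0.066, 0.0156), Meg3 (-0.22 ± 0.074, 0.0314) and Trappc9 (-0.18 ± 0.061, 0.0341). Igf2-H19 had -0.06 and -0.05 here and the Kcnq1 cluster a median of 0.00. Both parents differed in strain between 3Rb and 1Rb_P. Dio3 and Meg3 lie on chromosome 12, and the higher window, shared by Kcnq1 and Kcnq1ot1, lies on chromosome 7. The part of strain in these differences was not tested. The comparisons with 1Rb_M and with 1Rb_P share the 3Rb libraries, so their values stand side by side and are not independent. DESeq2 called 2 lower and 1 higher, where 5.69% of autosomal windows were lower and 6.09% higher. Leaving out 1Rb_P replicate 1 (7.62% and 7.07%) or 3Rb replicate 2 (8.95% and 7.99%) each left 3 lower and 1 higher.

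In 5 of the 17 clusters no window was called in any of the 6 comparisons. These were Grb10, Nnat, Impact, Nap1l5 and Commd1-Zrsr1, 11 windows together. Over all 87 windows 46 had no call in any comparison (52.9%), near the 54.5% of autosomal windows. Of the 41 genes 19 had no called window, among them the growth receptor Igf2r and its antisense RNA Airn, Mest, Peg3, Peg10, Sgce and Phlda2. A 50 kb window is far wider than a control region and reads both alleles together, so a change in 1 allele or in a short region could pass unseen.

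Windows of genes listed as expressed from the paternal allele only and from the maternal allele only were set side by side. The classes follow the allele listed for each gene, and expression by allele in testis was not measured here. In 1Rb_M against 1Rb_P the 22 paternal windows had a median log2 difference of 0.08 with 18 above 0, and the 35 maternal windows 0.12 with 30 above 0. With 1Rb_M replicate 3 alone the medians were 0.05 with 14 above 0 and 0.069 with 24 above 0. In 3Rb against 1Rb_M the medians were -0.16 with 12 lower and 0 higher, and -0.08 with 16 lower and 2 higher. The lower windows are 54.5% of the paternal and 45.7% of the maternal ones, where 21.1% of autosomal windows and 26.5% of those with a protein-coding gene were lower. With 1Rb_M replicate 3 alone 8 paternal and 13 maternal windows were lower (36.4% and 37.1%), against 22.5% of autosomal windows. The difference between paternal and maternal windows was not tested. Windows of a cluster are neighbours and not independent.

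The levels of the marks were compared across windows as a description. Spearman's rho between γH2AX in 1Rb_M and H3.3 in 1Rb was 0.43 over the 87 windows, against 0.17 over autosomal windows, and in 3Rb it was 0.37 against -0.15. The value in 1Rb_M varied by library, at 0.41, 0.03 and 0.56 in replicates 1 to 3 over the 87 windows and 0.17, -0.24 and 0.45 over autosomal windows. The points share the input in their denominators, and the marks were measured at different ages.

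Other genes were drawn from lists fixed for comparison. Other imprinted genes, 35 in 64 windows of which 9 are shared with the 87, had 1 higher and 0 lower in 1Rb_M against 1Rb_P, and 2 higher and 20 lower in 3Rb against 1Rb_M. The 20 are 31.2% of them, near the 26.5% of windows with a protein-coding gene. Against 1Rb_P 2 were higher and 5 lower (7.81%), where 12.2% of autosomal windows were lower. With 1Rb_M replicate 3 alone their median log2 difference was 0.084 between the crosses, against -0.008 over autosomal windows. For 3Rb against that library it was -0.079, against 0.036 over autosomal windows. The single call between the crosses with all libraries was the window of Osbpl5 and Tnfrsf23 on distal chromosome 7 (chr7:143650001-143700000), with 26.6 ± 0.83 CPM in 1Rb_M and 13.6 ± 1.09 in 1Rb_P, a log2 difference of 0.96 ± 0.081 (edgeR adjusted p = 4.33e-09). The 3Rb libraries had 25.3 ± 1.05 CPM there. On the enrichment scale that window had -1.22 in 1Rb_P and -1.07 in B6, against -0.27 in 1Rb_M and -0.35 in 3Rb. 1Rb_M and 3Rb had a B6.SPRET7MOLF12 parent, whereas 1Rb_P and B6 did not. The part of strain and of read mapping at this window was not tested. In H3.3 the same window had a log2 difference of -0.47 ± 0.060 in 1Rb against Cg (edgeR adjusted p = 4.35e-07) and of -0.44 ± 0.059 in 3Rb against Cg (2.01e-07). The latter comparison also had 2 lower windows of Sfmbt2 (-0.16 and -0.15, edgeR adjusted p = 0.0224 and 0.0438) and 1 higher window of Cobl (0.15, 0.0491). In it 4.69% of the list was lower and 1.56% higher, where 1.88% and 3.18% of autosomal windows were. For 1Rb against Cg 1.56% of the list was lower, where 1.09% of autosomal windows were. Begain, at the edge of the Dlk1-Dio3 domain, fell in 3Rb by 0.37 against 1Rb_M and by 0.27 against 1Rb_P.

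Genes that set or keep imprints, 27 in 52 windows, had 0 calls between the crosses by edgeR, with 5 at an unadjusted p under 0.05. At that unadjusted threshold 10.3% of autosomal windows were higher and 8.81% lower. In 3Rb 4 of these windows were higher and 15 lower than in 1Rb_M, and 3 higher and 12 lower than in 1Rb_P. The lower windows are 28.8% and 23.1% of the list, where 26.5% and 16.6% of autosomal windows with a protein-coding gene were lower. With 1Rb_M replicate 3 alone the median log2 difference of the list was 0.065 between the crosses. The 87 imprinted windows had 0.075 there and autosomal windows -0.008. In 3Rb against that library the list had -0.11, the 87 windows -0.106 and autosomal windows 0.036. With that library alone, these differences were thus not particular to the imprinted windows. Ehmt2, a histone H3 lysine methyltransferase, fell by 0.52 and by 0.36, and Mbd3, a member of a chromatin remodelling complex, by 0.42 and 0.37. Prdm14, a regulator of germ cell fate, was higher by 0.53 and 0.45. In H3.3 the list had 1 call, Dnmt3a, a de novo DNA methyltransferase, at -0.18 ± 0.056 in 3Rb against 1Rb (edgeR adjusted p = 0.0401). That is 1.92% of the list, where 1.1% of autosomal windows were lower.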

How the data were processed

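The deposited files hold counts of aligned reads per 50 kb window of mm10, not normalized, deposited as a file for each library. The genome mm10, BWA and CASAVA 1.8 are named in the submitters' processing notes; filters, duplicate handling and mapping of reads with several hits are not given in the sources used here. Per the labels' protocols, DNA came from whole testis. From these counts, edgeR 4.0.16 (R 4.3.3) with TMM scaling and its quasi-likelihood test was fitted over the 3 groups of each mark on every window whose mean count reached 10 (53118 for γH2AX, 53117 for H3.3), Benjamini-Hochberg adjusted over all of them. Enrichment is the log2 ratio of library shares to the pooled inputs with a pseudocount of 0.5, centred on the median autosomal window. CPM use TMM scaling. With 3 against 3 libraries an exact permutation p cannot go below 0.1, so cluster means carry no p. DESeq2 1.42.0, run without its filter on mean counts, other scalings and left-out libraries were alternatives. The edgeR script was tested on simulated data.

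The input titled 1Rb_M bears the strain label of the 1Rb_P cross. The 1 Copg2 window of unusually low input was left out as an alternative. Replicates of a group differed beyond sampling noise, with chi-square per degree of freedom of 1.382 to 34.64 over 18 pairs. Windows were named by a rule: in each comparison and cluster, the called window with the smallest p, up to 10 clusters, and up to 4 called windows of each other list; further windows were named after their values were seen. The genes and lists were chosen with earlier results of these data known. Positions and promoters are from RefSeq, GRCm38.p6; all 41 genes matched.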

Additional observations from a re-analysis of the deposited data

How the results depend on the processing

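Counts of called imprinted windows are given by setting against 3 (1Rb_M against 1Rb_P), 41 (3Rb against 1Rb_M) and 7 (3Rb against 1Rb_P) for γH2AX and 0 for each H3.3 comparison. DESeq2 gave 0, 21 and 3. The share of autosomal windows called changed with the setting too, so these counts are not changes in imprinted windows alone. Leaving out windows of unusual input gave 5 in the first, where 0.68% of autosomal windows were higher and 0.928% lower (0.331% and 0.918% in the main fit). Library totals gave 5 in the first, and shifted the median of all windows by 0.08 there and by -0.10 in the second; under them the second had 47 lower and 0 higher, where 32% of autosomal windows were lower and 7.22% higher. Windows that hold an annotated start numbered 34 (genes over several windows without a known strand were left out) and gave 16 in the second and 3 in the third. Adding windows within 50 kb, 133 in all, gave 5 in the first, 17 in the third and 1 each in H3.3 of 1Rb against Cg and of 3Rb against 1Rb. Both sets were counted in the main fit, so its autosomal shares apply, and their counts are out of 34 and 133 windows. With 1Rb_M replicate 3 alone the first gave 17. Leaving out 1 library at a time gave 0 to 20, 24 to 41 and 4 to 9 for γH2AX, and 0 to 3, 0 to 3 and 0 to 2 for H3.3 of 1Rb against Cg, 3Rb against Cg and 3Rb against 1Rb. Clusters with every 1Rb_M library above every 1Rb_P library numbered 4, 9 when scaled to library totals and 4 to 9 with a library left out; clusters above the autosomal median in H3.3 numbered 16, and 8 when not centred. A replicate block gave 2, 39 and 7, and 0 in each H3.3 comparison. In the γH2AX comparisons it called 0.137%, 16.6% and 9.67% of autosomal windows higher and 0.571%, 19.7% and 10.9% lower. Same-numbered libraries correlated from -0.586 to 0.226, so the numbers do not pair them. Under the block the Dio3 call between crosses alone was lost among named windows (edgeR adjusted p = 0.0556). The cause of these shifts was not tested. Of 241 values of 19 named windows under the alternatives, 207 stayed called in the same direction, 34 lost the call and 0 changed sign. Those windows were chosen by their p in the same data. Cluster levels were less stable. Of 136 values of 34 mean levels under single inputs or without centring, 85 stayed within the SD between libraries and 51 moved beyond it. At this depth and spread, 2 standard errors of the median window were 0.11 or less in H3.3 and 0.13 in γH2AX (log2). Adjustment over all windows set a stricter bar than that. An H3.3 difference of 0.14 at Impact (1Rb against Cg) and a γH2AX difference of 0.26 at H19 (1Rb_M against 1Rb_P) did not pass. Differences below 2 standard errors, and some above, could therefore go uncalled in a single window.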
